A study of Homo sapiens with 24 samples.

Results

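The response of parental LNCaP cells to 4 h of Acetalax was measured in 6 RNA libraries, 3 from cells given 10 µM of the drug and 3 from controls, out of 24 libraries in the series. LNCaP is an androgen-responsive prostate cancer line, and the parental cells had no earlier exposure to the drug named in their labels. Acetalax is oxyphenisatin acetate, a former laxative. Controls were untreated, and no solvent given to them is named, so an effect of the drug and one of its solvent cannot be told apart. The other libraries came from LNCaP CE, cells passaged in rising drug until resistant and then kept 2 weeks without it, and from PC3, an androgen-independent prostate cancer line, again as parental and CE cells. Every group held 3 libraries, with the same dose and time. The LNCaP cells grew in RPMI-1640 with 10% serum, and the labels place all libraries in 1 batch. The samples are called replicates, but no separate cultures are named, so p-values reflect only how far these samples scatter, which may be technical in part.

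Cells keep their cholesterol steady through SREBP factors, which are released to the nucleus when membranes run low in sterol and switch on the enzymes of cholesterol synthesis and the uptake of sterol. Immediate early genes, such as JUN and EGR1, are transcribed within minutes of a signal and need no new protein. MYC drives the making of ribosomes and falls quickly when transcription or growth signals are disturbed, because its RNA is short-lived. FOXA1 is a transcription factor that opens chromatin and keeps the luminal identity of prostate cells.

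Totals of expected counts, the read numbers that RSEM assigns to each gene, ranged from 43440476 to 53268294 per library. Levels below are in TPM, a transcript abundance scaled for gene length and library size. Fold changes are log2 values ± SE from edgeR's quasi-likelihood test on the counts, for 3 against 3 libraries. The fit held all 12 LNCaP libraries, so the spread behind each SE and p also came from the 6 CE libraries. A gene was called at a Benjamini-Hochberg adjusted p under 0.05. Of 113 called named genes tested with the 6 parental libraries alone, 24 were called there. MYC and JUN were not (adjusted p of 0.0674 and 0.0613 in edgeR). Because RSEM gives each library its own effective gene lengths, ratios of TPM can differ from fold changes of counts. Fewer cells and less RNA per cell cannot be told apart in these data. All 10 LNCaP marker genes were at or above 1 TPM in at least 1 library, with a summed level of 5888 to 8774 TPM in controls and 5329 to 7959 TPM with Acetalax. The 17 markers of fibroblasts, endothelium and immune cells summed to 15.4 to 32.6 TPM in controls and 18.4 to 43.3 TPM with Acetalax, 12 of them stayed under 1 TPM in every library, and the leukocyte marker PTPRC was at 0 in all 6.

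One library of each group, control 2 and Acetalax 3, was unlike the remaining 4. Controls 1 and 3 correlated at 0.9957 (Pearson, log2 TPM, across genes) and Acetalax 1 and 2 at 0.9952, whereas pairs of the same group that included control 2 or Acetalax 3 correlated at 0.9752 to 0.9791. Control 2 and Acetalax 3 correlated with each other at 0.9883. Both were high in replication and mitosis genes and low in hypoxia targets, genes switched on when oxygen is short: over 38 of them, the median deviation of log2 CPM (counts scaled for library size) from the gene's mean over the 6 libraries was 0.62, -1.29 and 0.77 in controls 1, 2 and 3, and 0.62, 0.68 and -1.29 in Acetalax 1, 2 and 3. CA9, a carbonic anhydrase of oxygen-starved cells, read 2.58, 0.05 and 2.44 TPM in the controls and 2.28, 2.35 and 0 TPM with the drug. NDRG1, another such target, read 603, 52.4 and 682 TPM in controls and 581, 443 and 42.4 TPM with Acetalax. What set these 2 libraries apart is not given in the labels, and its part in each result was not tested. Results are therefore given with all 6 libraries and again without these 2.

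**Figure D1:**
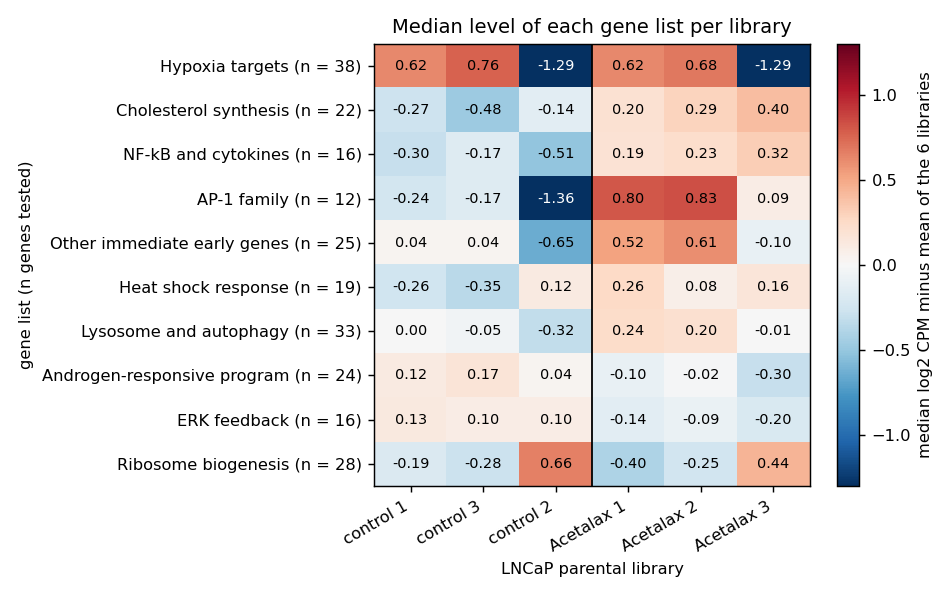
Median deviation of gene lists in each of the 6 libraries, as log2 CPM minus each gene's mean over the 6; rows are gene lists with their number of genes, columns are libraries, and the value is printed in each cell and coloured from blue (low) to red (high). Hypoxia targets stand at -1.29 in control 2 and in Acetalax 3 and between 0.62 and 0.77 in the other 4 libraries, while cholesterol synthesis is below 0 in all 3 controls and above 0 in all 3 Acetalax libraries.

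The comparison asked which genes had changed by 4 h. MSMO1, CREBRF, CCN1 and PPP1R15A were among the 12 largest rises, and MYC, HPS6, DDX28 and ZNF552 among the 12 largest falls, in a ranking of called genes whose groups did not overlap and whose higher group had a mean of at least 5 TPM. For ranked genes, the lack of overlap is thus a condition of the ranking and not a further result. Of 19393 genes tested, 1639 were called (8.45%), of which 783 were higher (4.04%) and 856 lower (4.41%). At least 2-fold changes were called for 212 higher and 244 lower genes. With limma on log2(TPM + 1) the calls leaned to the falls, with 580 higher and 1333 lower, and the median of all genes moved from -0.01 to -0.06. With no overlap between groups, 1123 genes (5.79%) had all 3 Acetalax TPM values above all 3 controls, and 2663 (13.7%) had all 3 below.

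Leaving out control 2 and Acetalax 3 gave more calls from fewer libraries, 5280 of 19832 genes (26.6%), with 2840 higher (14.3%) and 2440 lower (12.3%). Counts of gene lists without these 2 libraries, given below, stand beside these larger shares. Of the 1639 genes, 1609 were called again in the same direction, 30 lost their call and 0 were called in the opposite direction. The 2 libraries left out can themselves be set against each other: of 5247 genes called in the other 4, 4643 (88.5%) had the same sign in Acetalax 3 against control 2, compared with 67.4% of all genes tested. Fitted on the 6 parental libraries alone, where the spread is estimated without the 6 CE libraries, 154 genes were called (0.882%), with 82 higher (0.47%) and 72 lower (0.412%), of which 151 were among the 1639 in the same direction. Of the lists described below, that fit called 5 cholesterol synthesis genes, 3 immediate early genes outside AP-1, 2 NF-kB genes and 1 AP-1 gene, all higher. It called 0 genes of fatty acid synthesis, heat shock, the integrated stress response, or lysosome and autophagy. In the androgen-responsive program 2 genes were lower and in ERK feedback 1. A covariate for the 2 libraries in that fit gave 4427 calls (25.4%, with 12.3% higher and 13.1% lower). Among single libraries, the count fell most without Acetalax 2, to 967, and without Acetalax 1, to 1039, and it rose to 2615 without Acetalax 3. In all 6 of these fits 795 of the 1639 genes were called, 380 higher and 415 lower.

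**Figure D2:**
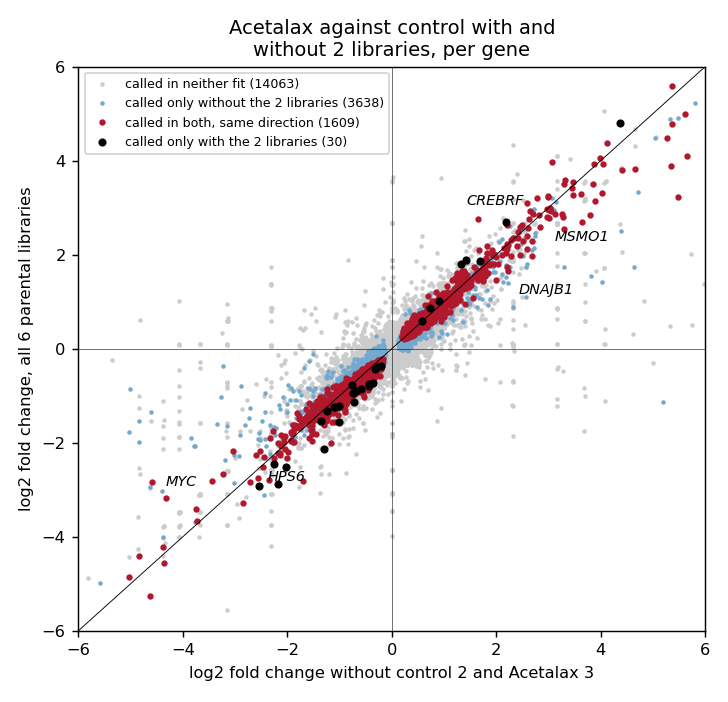
Log2 fold changes of Acetalax against control without control 2 and Acetalax 3 (horizontal) and with all 6 libraries (vertical), 1 point per gene, for 19340 genes tested in both, coloured by the fits that called them. The 1609 genes called in both fits lie in the upper right and lower left, and 36 genes beyond an axis value of 6 are not drawn.

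Among genes of sterol sensing and cholesterol synthesis, 11 of 22 synthesis genes and 2 of 7 sensing genes rose, MSMO1 and INSIG1 among them. MSMO1, a methyl sterol oxidase of the later pathway, stood at 44.5, 40.2 and 35.4 TPM in controls and at 321, 301 and 185 TPM with the drug. The lowest treated value, in Acetalax 3, was above every control, as the ranking required, and the change was 2.79 ± 0.16 (adjusted p = 7.19e-06). INSIG1, which holds SREBP in the endoplasmic reticulum and is itself an SREBP target, stood at 144, 63.5 and 139 TPM in controls and at 491, 483 and 281 TPM with the drug. Control 2 and Acetalax 3 were each the lowest of their group, the groups did not overlap, and the change was 2.02 ± 0.25 (adjusted p = 0.000694).

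The 11 of 22 cholesterol synthesis genes that rose stood beside 0 that fell, with a median log2 of 0.50 against -0.01 for all genes. In the early, mevalonate steps 6 of 9 rose, and in the later steps from squalene on 5 of 13. HMGCS1, which makes the precursor of mevalonate, stood at 58.05, 54.1 and 58.1 TPM in controls and 178, 157 and 103 TPM with Acetalax. Again no treated library reached down to the controls, with a change of 1.47 ± 0.11 (adjusted p = 5.85e-05). MVD, IDI1 and MVK, enzymes between mevalonate and the isoprenoid units, rose by 1.32, 1.28 and 1.24. SQLE, the squalene epoxidase, changed by 0.48 (adjusted p = 0.0906) and was called only without the 2 libraries. Without these 2, 19 genes of the list rose and 1 fell, with a median of 0.54.

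Among 18 other genes of sterol sensing, uptake and export, 5 rose and 0 fell, with a median of 0.16, and the 6 genes listed under export gave 0 calls. Besides INSIG1, SREBF2, the gene of the main cholesterol SREBP, rose by 0.40 ± 0.07 (adjusted p = 0.00619). MYLIP and NPC2, listed under uptake and traffic, were called as well. Neither kept its call without control 2, control 3, Acetalax 1 or Acetalax 2, where 3 of the list were called. MYLIP did not without control 1 either. Without both libraries that stood apart 9 rose and 1 fell. Of 16 fatty acid synthesis genes, 4 rose and 0 fell with a median of 0.14: ACACA, which catalyses the committed step, and FASN, the synthase that follows it, by 0.62 ± 0.08 and 0.75 ± 0.12 (adjusted p = 0.00114 and 0.00283), together with ACSS2 and ME1. The last 2 lost their calls without control 3, Acetalax 1 or Acetalax 2, where 2 of the list were called, and ME1 also without control 1 or control 2. Without both libraries that stood apart 7 rose.

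The sterol regulatory element, to which SREBP binds, was searched as TCACNCCAC (N for any base) on both strands in the 250 bases before the start of each gene in a RefSeq promoter table (GRCh38.p14). It was in 0.883% of 35116 promoters, in 0 of 17 cholesterol synthesis genes with an entry, and in 1 of 15 of the sensing, uptake and export list, SREBF2. Its promoter (chr22:41832855-41833104, plus strand) is shown because SREBF2 is the 1 called gene of the sterol lists that held the motif, which is in capitals.
SREBF2: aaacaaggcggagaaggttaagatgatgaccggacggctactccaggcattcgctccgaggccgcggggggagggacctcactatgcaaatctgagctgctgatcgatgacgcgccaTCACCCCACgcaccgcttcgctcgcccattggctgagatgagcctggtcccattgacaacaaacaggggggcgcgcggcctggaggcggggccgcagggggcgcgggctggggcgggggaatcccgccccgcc

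JUN and JUNB, which respond to many signals, rose. Without control 2 and Acetalax 3 their changes were 1.82 and 2.12. JUN, a subunit of the AP-1 factor, stood at 49.0, 18.4 and 52.2 TPM in controls and at 170.3, 163 and 164 TPM with Acetalax. The 3 treated libraries were close together and all above the controls, of which control 2 was lowest (2.17 ± 0.27, adjusted p = 0.00077). JUNB, another AP-1 subunit, stood at 44.45, 31.0 and 44.1 TPM in controls and 190.3, 171 and 92.9 TPM with the drug, again with no overlap (2.00 ± 0.19). Of 12 AP-1 genes tested 5 rose and 0 fell, with a median of 0.75. The other 3 were MAFG, ATF3 and MAFK, of which ATF3 lost its call without control 1, Acetalax 1 or Acetalax 2 and MAFK without Acetalax 2 alone, where 3 of the list were called. FOS changed by 0.75 (adjusted p = 0.611). Without the 2 libraries that stood apart 9 rose, FOS among them at 0.54. The median of the AP-1 list, measured as for hypoxia, was -1.36 in control 2 and -0.24 and -0.17 in the other controls, compared with 0.80, 0.83 and 0.09 in Acetalax 1, 2 and 3.

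CCN1, a secreted matrix protein encoded by an immediate early gene, stood at 8.59, 8.34 and 9.45 TPM in controls and 51.4, 41.3 and 54.8 TPM with Acetalax. Neither library that stood apart differed much from its group here, and the change was 2.58 ± 0.14 (adjusted p = 7.19e-06). SRF, the factor that binds the serum response box of many such genes, stood at 20.3, 22.0 and 19.9 TPM in controls and at 60.6, 54.9 and 69.6 TPM with the drug, with no overlap (1.67 ± 0.13, adjusted p = 6.06e-05). EGR1, a zinc finger factor, was low throughout, at 0.26, 0.34 and 0.42 TPM in controls and 3.36, 2.84 and 0.79 TPM with Acetalax. The groups did not overlap, with Acetalax 3 nearest to the controls (2.81 ± 0.40, adjusted p = 0.00172). EGR2 had 0 counts in each control and 27, 6 and 2 in the treated libraries, and its call was lost without control 1 (adjusted p = 0.052). KLF6, a zinc finger factor, went from 11.6, 3.20 and 11.85 TPM to 59.3, 48.4 and 17.4 TPM (2.31 ± 0.47, adjusted p = 0.0118).

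Of 25 immediate early genes outside AP-1, 9 rose and 0 fell, with a median of 0.45, and 7 were called without control 1. Without control 2 and Acetalax 3, 14 rose and 5 fell. For the serum response box, the pattern CC, any base, TAT, any 2 bases and GG was searched on both strands. The pattern admits sequences that are not the box and misses some forms of it, so its shares are not those of the box. It was in 1.06% of all promoters, in 3 of 20 of these genes with an entry (EGR1, EGR2 and SRF) and in 0 of 9 AP-1 genes. The promoters of EGR1 (chr5:138465229-138465478, plus strand), with 2 matches at 105 and 83 bases before the start, and of SRF (chr6:43171019-43171268, plus strand), with 1 match at 30 bases, are shown as those of the called genes with matches whose levels are given above in TPM. Capitals mark matches to the pattern only, and ccataaaagg at the end of the SRF sequence, a form of the box without TAT, is in lower case.
EGR1: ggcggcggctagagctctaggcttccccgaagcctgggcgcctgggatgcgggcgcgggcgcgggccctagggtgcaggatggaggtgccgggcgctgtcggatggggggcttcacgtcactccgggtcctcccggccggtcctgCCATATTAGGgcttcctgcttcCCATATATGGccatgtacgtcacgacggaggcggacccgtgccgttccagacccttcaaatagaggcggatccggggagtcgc
SRF: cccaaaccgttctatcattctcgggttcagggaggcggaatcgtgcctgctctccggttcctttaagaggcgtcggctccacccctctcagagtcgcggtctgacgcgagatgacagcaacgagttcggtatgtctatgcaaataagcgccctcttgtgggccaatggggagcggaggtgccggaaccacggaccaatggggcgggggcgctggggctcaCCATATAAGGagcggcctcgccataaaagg

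**Figure D3:**
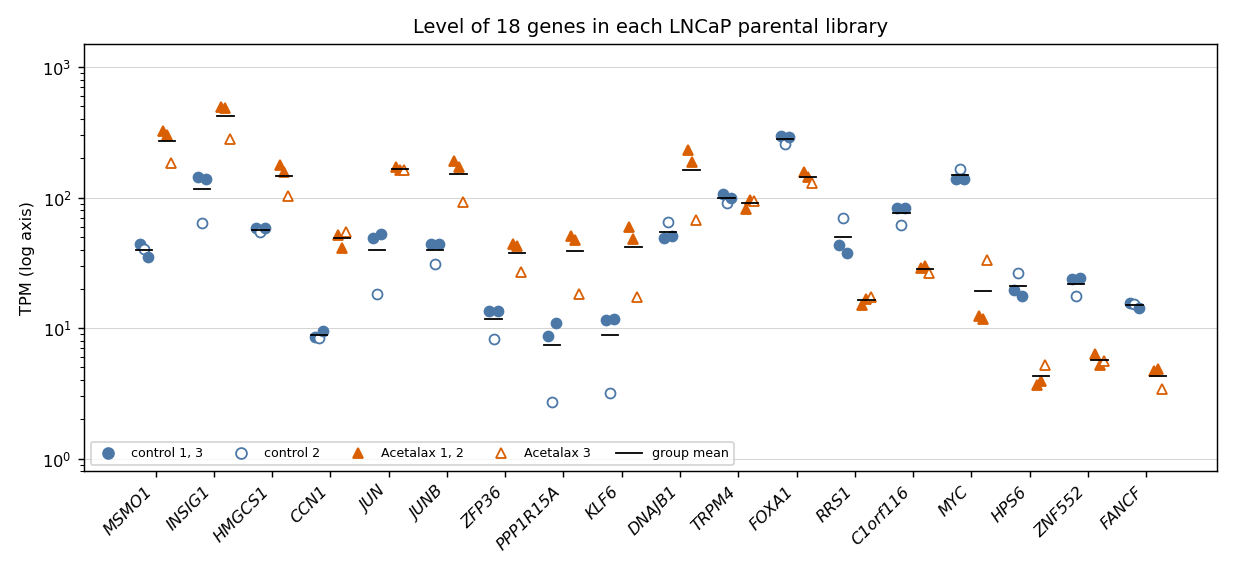
TPM of 18 genes in the 6 libraries on a log axis, with 1 point per library, the group mean as a line, and control 2 and Acetalax 3 as open symbols. INSIG1, MSMO1, JUN and CCN1 have all 3 Acetalax libraries above all 3 controls, MYC and FOXA1 have all 3 below, and for TRPM4 the groups overlap.

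In the NF-kB list, which holds subunits, inhibitors and cytokines of this inflammatory pathway, 8 of 16 genes tested rose and 0 fell, with a median of 0.64. The list holds 25 genes, and of its 12 cytokine genes only 3 passed the count filter and were tested. TNFAIP3, an enzyme that shuts the pathway off, stood at 1.08, 1.59 and 1.31 TPM in controls and at 2.36, 3.91 and 3.09 TPM with Acetalax, with no overlap (1.86 ± 0.22 in counts, adjusted p = 0.00055). NFKBIA, the inhibitor that holds NF-kB in the cytoplasm, stood at 102, 70.4 and 95.3 TPM in controls and within 124 to 126 TPM in the 3 treated libraries (0.57 ± 0.11, adjusted p = 0.0091). The groups did not overlap, and control 2 was again the lowest. REL, a subunit, rose by 1.01, NFKBIZ and NFKBIB, inhibitor-family proteins, by 0.88 and 0.87, and the cytokines IL11 and LIF by 1.36 and 0.75. Over the 6 libraries IL11 and LIF were low, at 1.03 to 3.1 and 1.21 to 2.66 TPM. RELB was the other called gene and lost its call without any 1 of the 3 controls, so that 7 were then called. Without control 2 and Acetalax 3, 10 rose and 0 fell, with a median of 0.42.

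An NF-kB site, searched on both strands as GGGA and TTCC with any 2 bases between them, was in 1.40% of all promoters and in 11 of 21 genes of the list with an entry (52.4%), CXCL1 and IL6 included. Of the 6 called genes with an entry 5 held it, NFKBIA, NFKBIB, NFKBIZ, REL and TNFAIP3. The promoter of NFKBIA (chr14:35404750-35404999, minus strand) is shown as an example, with the motif in capitals.
NFKBIA: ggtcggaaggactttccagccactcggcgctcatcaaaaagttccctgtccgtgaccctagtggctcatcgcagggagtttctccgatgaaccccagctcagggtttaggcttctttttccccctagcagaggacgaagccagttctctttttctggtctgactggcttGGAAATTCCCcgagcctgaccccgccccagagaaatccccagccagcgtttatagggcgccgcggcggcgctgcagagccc

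Some regulators of transcription elongation and RNA decay changed as well. SERTAD1, a cell cycle and transcription cofactor, stood at 5.53, 5.21 and 5.99 TPM in controls and at 21.4, 19.3 and 21.7 TPM with Acetalax. The 6 values formed 2 tight groups (1.99 ± 0.10, adjusted p = 6.67e-06). BRD2, a bromodomain protein that reads acetylated histones, stood at 195.5, 199 and 188 TPM in controls and at 336, 288 and 276 TPM with the drug, with no overlap (0.77 ± 0.07). HEXIM1, the inhibitor of the elongation kinase P-TEFb, moved the other way, from 42.1, 31.9 and 41.8 TPM to 25.7, 23.5 and 21.1 TPM (-0.62 ± 0.08, adjusted p = 0.00095). In this list of 16 genes 3 rose and 2 fell. CDK9, the P-TEFb kinase, was the other fall, by 0.30. CDK9 lost its call without control 1, Acetalax 1 or Acetalax 2, where 1 fall was called, and 5 falls were called without Acetalax 3. Without both libraries that stood apart 4 rose and 6 fell. Of 14 mRNA decay factors 3 rose and 0 fell, with ZFP36, which brings AU-rich RNA to decay, at 13.5, 8.30 and 13.5 TPM in controls and 44.5, 42.3 and 26.7 TPM with Acetalax (1.75 ± 0.17). ZC3H12A lost its call without control 1, control 2, control 3 or Acetalax 1, and 6 decay factors rose and 3 fell without the 2 libraries that stood apart.

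MYC (ENSG00000136997.21) fell. It stood at 138, 165 and 139.6 TPM in controls and at 12.5, 11.7 and 33.4 TPM with Acetalax. No treated library came near the controls, although Acetalax 3 was above the other treated libraries and control 2 above the other controls. The change was -2.82 ± 0.39 (adjusted p = 0.00136), and -3.44 without these 2 libraries. MXD1, which competes with MYC for its partner MAX, went from 4.32, 2.35 and 6.14 TPM to 18.2, 16.2 and 12.0 TPM (2.02 ± 0.22, adjusted p = 0.00035). In the list of 11 MYC and MAX network genes 2 rose and 2 fell, with a median of -0.11, and the other fall was MYCL at -0.82. MGA, the other rise, lost its call without control 1, control 2, Acetalax 1 or Acetalax 2, so that 1 rise was then called. Without control 2 and Acetalax 3, 3 rose and 2 fell.

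Most genes of ribosome production gave no call at 4 h. Of 28 ribosome biogenesis genes 0 rose and 2 fell, with a median of -0.15, and without the 2 libraries 3 rose and 8 fell. Of all genes tested 4.04% were higher and 4.41% lower, and 14.3% and 12.3% without the 2 libraries. RRS1, an assembly factor of the large subunit, stood at 43.1, 69.3 and 37.5 TPM in controls and at 15.2, 16.6 and 17.3 TPM with Acetalax, with no overlap (-1.55 ± 0.23, adjusted p = 0.0019). POLR1B, a subunit of RNA polymerase I, fell by 1.3. The list's median stood at 0.66 in control 2 and 0.44 in Acetalax 3 and at or below -0.19 in the other 4 libraries. Of 28 ribosomal protein genes 0 were called, and 10 rose without the 2 libraries.

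Of the genes of prostate identity FOXA1 fell. It stood at 297, 258 and 292 TPM in controls and at 158, 143 and 129.5 TPM with Acetalax. All treated libraries lay below all controls (-0.87 ± 0.09, adjusted p = 0.000208). C1orf116, an androgen-responsive gene, went from 82.8, 62.1 and 82.7 TPM to 28.8, 29.7 and 26.3 TPM (-1.26 ± 0.13). KLK3, which encodes PSA, stood at 5057, 2921 and 5219 TPM in controls and 4839, 4633 and 2909 TPM with the drug, where the low values were those of control 2 and Acetalax 3 (-0.01, adjusted p = 1). Of 24 genes of the androgen-responsive program 4 fell and 0 rose, with a median of -0.22, and 10 fell and 1 rose without the 2 libraries. Among these falls GATA2 lost its call without control 1, control 3, Acetalax 1, Acetalax 2 or Acetalax 3, with 3 falls then called.

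SNAI2, a repressor linked to epithelial-mesenchymal transition, fell from 3.23, 1.55 and 2.93 TPM to 0.42, 0.48 and 0.22 TPM (-2.84 ± 0.32, adjusted p = 0.00043). SPRY2, a feedback inhibitor induced by ERK signalling, fell from 0.92, 1.08 and 1.04 TPM to 0.42, 0.44 and 0.45 TPM (-1.13 ± 0.11), with little spread within either group. Of 16 ERK feedback genes 1 rose and 4 fell, with a median of -0.18. The other falls were SPRY4, at -0.81, and DUSP6 and SPRED1, and the rise was EPHA2. These 3 falls were at low levels over the 6 libraries. SPRY4 read 0.45 to 1.89 TPM, DUSP6 0.13 to 0.45 TPM and SPRED1 1.27 to 1.66 TPM, and the groups overlapped for DUSP6 and SPRED1. Falls numbered 2 without control 2, Acetalax 1 or Acetalax 2, because DUSP6 and SPRED1 lost their calls. DUSP6 also lost its call without control 1 and SPRED1 without control 3 or Acetalax 3, and EPHA2 lost its call without control 1 or control 3. Without both libraries that stood apart 3 rose and 3 fell.

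**Figure D4:**
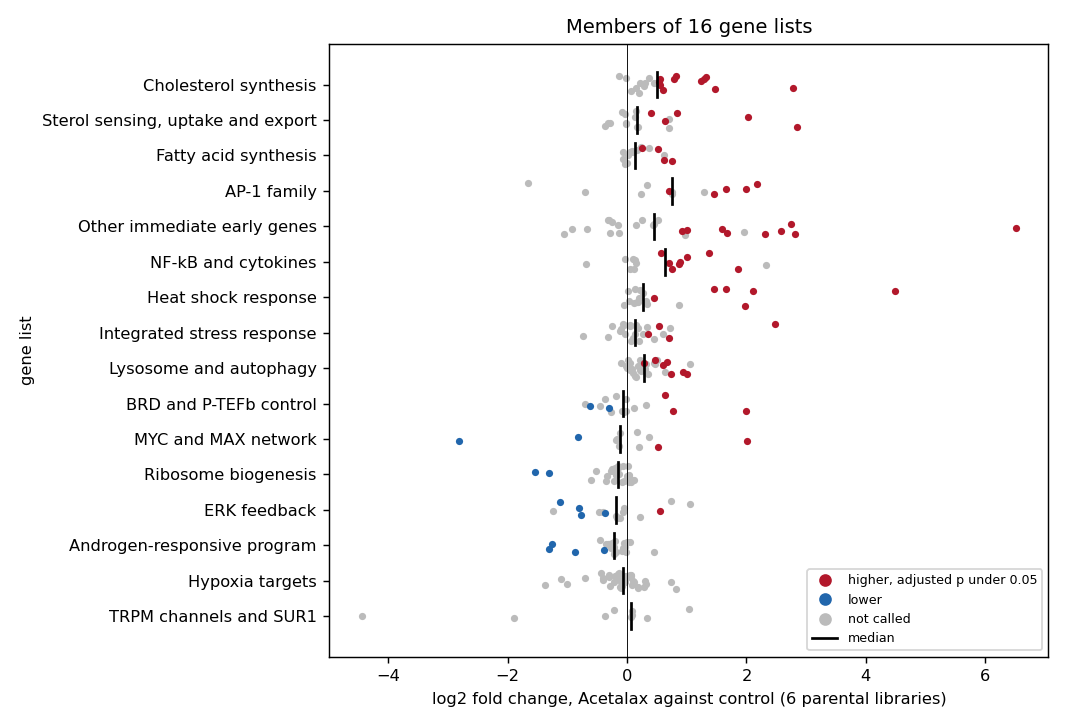
Log2 fold changes (horizontal) of the members of 16 gene lists (vertical), 1 point per gene tested, in red where called higher, blue where called lower and grey where not called, with the list median as a black line. The median is 0.50 for cholesterol synthesis, 0.75 for AP-1 and -0.22 for the androgen-responsive program, against -0.01 for all genes.

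Heat shock genes encode chaperones for damaged proteins, and HSPA6, HSPA1B and DNAJB1 were high in Acetalax 1 and 2 and near the controls in Acetalax 3. HSPA6, a strictly inducible HSP70, stood at 0.32, 0.72 and 0.77 TPM in controls and at 20.8, 18.8 and 0.70 TPM with the drug. Acetalax 3 was within the range of the controls, so the groups overlapped (4.49 ± 0.89, adjusted p = 0.0106, and 5.26 without the 2 libraries). HSPA1B, another inducible HSP70, stood at 131, 120.2 and 124 TPM in controls and at 784, 644 and 149 TPM with Acetalax (2.12 ± 0.40). Its copy HSPA1A is nearly identical, so the division of reads between them is uncertain. The co-chaperone DNAJB1 stood at 48.8, 64.7 and 50.5 TPM in controls and at 231, 189 and 67.6 TPM, where Acetalax 3 was just above control 2 (1.66 ± 0.32, adjusted p = 0.00896). DNAJB4, a related co-chaperone, was instead highest in Acetalax 3, at 17.7, 13.2 and 28.4 TPM against 8.03, 8.04 and 8.72 TPM in controls (1.45 ± 0.25). Of 19 genes 6 rose and 0 fell, with a median of 0.26, and 16 rose without the 2 libraries. HSPA1A and HSF2 were the other calls: HSPA1A lost its call without control 2, control 3, Acetalax 1 or Acetalax 2 and HSF2 without control 1 or control 3. The count was 4 without control 3 and 11 without control 2.

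The heat shock element, searched on both strands as GAA, TTC and GAA with any 2 bases after each of the first triplets, was in 0.441% of all promoters, in 6 of 17 genes of the list with an entry and in 1 of the 6 called, HSPA6 (chr1:161524290-161524539, plus strand), which is shown with the motif in capitals.
HSPA6: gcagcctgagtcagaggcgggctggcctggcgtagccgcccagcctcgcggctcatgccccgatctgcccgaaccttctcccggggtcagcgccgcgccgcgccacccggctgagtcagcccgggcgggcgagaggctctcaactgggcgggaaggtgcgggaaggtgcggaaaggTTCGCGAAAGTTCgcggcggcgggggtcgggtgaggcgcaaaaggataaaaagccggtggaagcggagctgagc

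PPP1R15A, which removes the phosphate from eIF2α and so ends a stress-induced halt of translation, stood at 8.75, 2.73 and 10.9 TPM in controls and at 51.2, 47.5 and 18.2 TPM with Acetalax. The groups did not overlap, as the ranking required, and control 2 and Acetalax 3 were each the lowest of their group (2.47 ± 0.43, adjusted p = 0.00556). CREBRF, which restrains the unfolded protein response factor CREB3, followed the same order, at 6.76, 1.36 and 8.45 TPM in controls and 48.3, 42.5 and 15.3 TPM with the drug (2.75 ± 0.54, adjusted p = 0.00975). Of 26 integrated stress response genes 4 rose and 0 fell, with a median of 0.14. The others were PPP1R15B, ASNS, at 0.36, and ATF4, the pathway's main factor, at 0.54, which lost its call without control 3, Acetalax 1 or Acetalax 2 (adjusted p of 0.0639, 0.125 and 0.134). DDIT3, a death-linked target, was not called, at -0.11 (adjusted p = 0.99), and 9 of the list rose and 4 fell without the 2 libraries. In the unfolded protein response list of 24 genes CREBRF was the 1 call, and 6 rose and 4 fell without the 2 libraries. The fit without them called 14.3% of all genes tested higher and 12.3% lower.

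Of 33 lysosome and autophagy genes 7 rose and 0 fell, with a median of 0.28, and 23 rose without the 2 libraries. Leaving out Acetalax 1 gave 3, Acetalax 2 gave 2 and Acetalax 3 gave 13 rises, and limma on log2(TPM + 1) gave 2. ATG14, a subunit of the lipid kinase that starts autophagosomes, rose by 1.00 (adjusted p = 0.00043) and TFE3, a factor that switches on lysosomal genes, by 0.48 (adjusted p = 0.00075), and both kept their calls whichever library was left out. FLCN, which restrains TFE3, read 71.0, 24.0 and 75.9 TPM in controls and 154, 138 and 90.4 TPM with Acetalax (1.05 ± 0.29, adjusted p = 0.0514), and it was called without the 2 libraries, at 0.87. Of 16 YAP and TAZ targets 3 rose and 1 fell, and 5 and 2 without the 2 libraries. LATS2, a kinase that restrains YAP, rose by 1.43, and CCN2 and FJX1 lost their calls when single libraries were left out, CCN2 in all but the fit without control 2 and FJX1 without control 1, control 2 or Acetalax 1. Both were low over the 6 libraries, CCN2 at 0 to 1.33 TPM and FJX1 at 0.17 to 0.59 TPM, where its groups overlapped.

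TRPM4, the calcium-activated sodium channel that the series ties to the drug (ENSG00000130529.16, chr19:49157741-49211836), stood at 107, 91.1 and 98.6 TPM in controls and at 81.7, 96.3 and 94.9 TPM with Acetalax. The groups overlapped, and the log2 fold change was 0.08 ± 0.10, with a 95% interval of -0.145 to 0.299 (adjusted p = 0.795). On TPM with limma it was -0.12, so its direction depends on the unit. Of 9 TRPM channel and SUR1 genes 0 were called, and 2 (TRPM7 and TRPM8) were lower without the 2 libraries. Of 19 sodium and potassium transport genes 1 fell, SLC24A1, which lost its call without control 1, control 2, control 3 or Acetalax 1, and of 21 calcium handling genes 0 were called. Without the 2 libraries 1 transport gene rose and 2 fell, and 2 calcium genes rose and 3 fell. In the cell volume list of 22 genes LRRC8D, a subunit of the volume-regulated anion channel, fell from 55.5, 50.9 and 61.9 TPM to 35.9, 34.9 and 19.9 TPM (-0.82, adjusted p = 0.006), without overlap. NFAT5, the factor of the response to high salt, was called higher, at 0.96, but not without control 1, Acetalax 1 or Acetalax 2 (adjusted p of 0.095, 0.104 and 0.0927). Without the 2 libraries that stood apart 5 of the volume list rose and 2 fell, in a fit that called 14.3% of all genes tested higher and 12.3% lower.

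Several lists gave few or 0 calls at this time. In 24 replication and mitosis genes 0 were called, and 14 were lower without the 2 libraries. The median of this list, measured as for hypoxia, was 0.91 in control 2 and 1.03 in Acetalax 3 and between -0.63 and -0.33 in the other 4 libraries, and the part of this split in the 0 calls was not tested. Of 19 genes of G1 cyclins and CDK inhibitors CDKN2C, which encodes the inhibitor p18, fell by 1.29, and without the 2 libraries 3 rose and 3 fell. Of 17 p53 targets PPM1D, the phosphatase that ends the response, rose by 0.67, XPC, a DNA repair factor, fell by 0.71, and BBC3, which encodes the death protein PUMA, rose by 1.34 but lost its call without Acetalax 1 or Acetalax 2 (adjusted p of 0.0743 and 0.0641). Without the 2 libraries 4 p53 targets rose and 4 fell. That fit called 14.3% of all genes tested higher and 12.3% lower, the shares beside which such counts stand. Of 15 genes of the BCL2 family 2 rose and 0 fell, the death gene BBC3 and the survival gene MCL1, which rose by 0.52. Without the 2 libraries 5 of the family rose and 3 fell. NRF2 targets (18 genes), histones (18), metallothioneins (7), hypoxia targets (38) and mitochondrially encoded genes (13) gave 0 calls each, and without the 2 libraries 5 hypoxia targets rose and 10 fell, and 1 mitochondrial gene rose and 5 fell. In these 4 libraries 5 NRF2 targets, 2 histone genes and 1 metallothionein gene rose, and 1 NRF2 target fell. CITED2, which limits the hypoxia factor HIF-1, stood at 129, 38.4 and 132 TPM in controls and 37.3, 32.1 and 21.4 TPM with Acetalax, so that control 2 lay just above the treated libraries (-1.65, adjusted p = 0.011).

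Among 4 classes of exon number, the share of called falls was highest in genes with 1 exon. The exon number of a gene was the largest over its transcripts in GENCODE 29. Among 363 protein-coding genes with 1 exon 65 were lower (17.9%) and 8 higher (2.2%), with a median of -0.27. The lower share was 10.5% of 1413 genes with 2 to 3 exons, 5.89% of 5080 with 4 to 8 and 3.07% of 7839 with over 8, against 5.12% of all 14695 with an exon number. Without control 2 and Acetalax 3 the shares followed the same order, at 32.0%, 22.0%, 15.5% and 11.7%, and with each library left out in turn 53 to 86 of the 1-exon genes were lower. In PC3 parental cells, where 6.39% of all genes tested were called (2.75% higher and 3.64% lower), 5.27% of the protein-coding genes in these classes were lower, with 4.96% of the 1-exon genes and 7.13% of those with over 8 exons. In LNCaP CE, where 7.4% were called (3.34% higher and 4.06% lower), the same shares were 4.51%, 12.4% and 3.32%. No test was made of these shares, since genes are not replicates. Genes with 1 exon had a median mean level of 4.2 TPM, below the 15.8 TPM of those with over 8 exons, and the part of level in the shares was not tested.

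**Figure D5:**
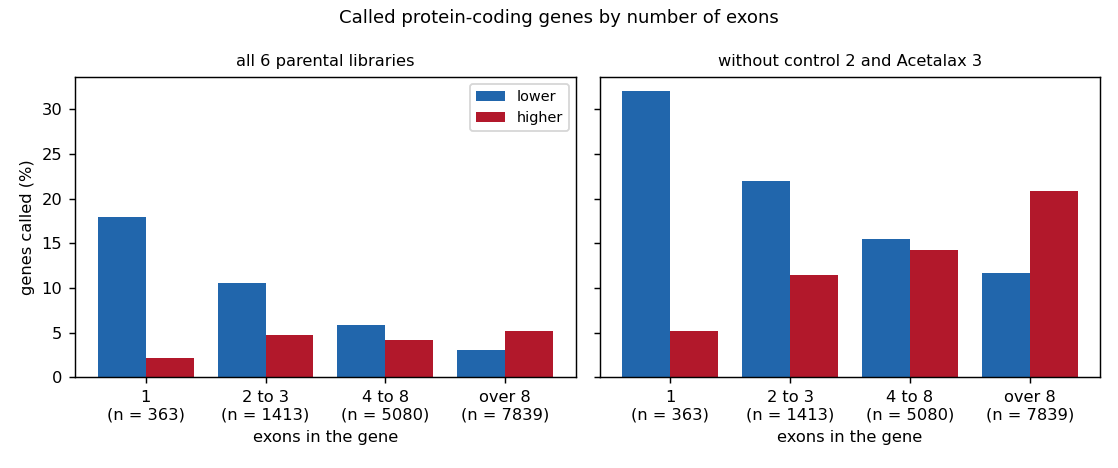
Percent of protein-coding genes called lower and higher with Acetalax by number of exons, in bars from 0, with all 6 libraries (left) and without control 2 and Acetalax 3 (right). With all 6, the lower share falls from 17.9% of genes with 1 exon to 3.07% of genes with over 8 exons, and the higher share is 2.2% and 5.14%.

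Of the 12 largest falls in the ranking 7 had 1 exon, among them LGALS8-AS1, an antisense RNA that is outside the protein-coding shares above. HPS6, a subunit of a complex that forms lysosome-related organelles, stood at 19.45, 26.5 and 17.5 TPM in controls and at 3.70, 3.97 and 5.18 TPM with Acetalax (-2.22 ± 0.22, adjusted p = 0.000198). FANCF, a DNA crosslink repair protein, stood at 15.5, 15.4 and 14.3 TPM in controls and at 4.67, 4.86 and 3.40 TPM with the drug (-1.73 ± 0.12, adjusted p = 3.01e-05). As the ranking required, the groups did not overlap in either gene, and for HPS6 control 2 and Acetalax 3 were each the highest of their group. DDX28, UFSP1, MARS2 (a mitochondrial tRNA synthetase) and EID2B, each with 1 exon, fell by 1.98, 1.97, 1.66 and 1.64. PARS2, another mitochondrial tRNA synthetase gene, has 2 exons and fell by 1.89. DDX28 lies opposite DUS2, which changed by -0.29 (adjusted p = 0.202). The 8 called rises with 1 exon included JUN, JUNB, IER5, HSPA1B and HSPA6.

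Zinc finger genes, most of which encode DNA-binding repressors, were described by their symbols. Of 478 protein-coding genes with a ZNF symbol 95 were lower (19.9%, against 5.09% of all protein-coding genes tested) and 22 higher (4.6%), with a median of -0.21, and 158 and 63 without the 2 libraries. ZNF552 stood at 23.7, 17.7 and 24.05 TPM in controls and at 6.29, 5.19 and 5.65 TPM with Acetalax, with the treated libraries within a narrow range (-1.90 ± 0.15, adjusted p = 6.06e-05). Many such genes are near-identical in sequence, so the division of reads among them is uncertain. The same holds for TRIM49D1, a member of a multigene family, at 54.1, 44.1 and 45.7 TPM in controls and 6.86, 15.4 and 3.6 TPM with the drug (-2.32 ± 0.52), which lost its call without control 1 or Acetalax 1 (adjusted p of 0.0528 and 0.0746). LGALS8-AS1, an antisense RNA opposite LGALS8, was lower by 1.77 on the log2 scale and lost its call without control 1, control 3, Acetalax 1 or Acetalax 2 (adjusted p of 0.0731, 0.0769, 0.0632 and 0.0611).

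Of the 12 largest rises in the ranking 6 were non-coding or carried only a clone-based name. AC055811.3 had 4, 0 and 1 counts in controls and 144, 75 and 34 with Acetalax, a ratio of summed counts per library size of 51.7 with a 95% interval of 21.9 to 161 for counting error only. RN7SL809P had 0, 1 and 1 counts and 36, 25 and 11 (ratio 36.8, 9.82 to 310). Each treated library was above every control in both, as the ranking required. Both lie wholly within longer genes on the same strand, AC055811.3 in FLCN and RN7SL809P in PTGES3, which changed by -0.05 (adjusted p = 0.955), so reads of the host cannot be fully told apart from theirs. AC093525.8 (log2 3.94) lies within ATP6V0C and AC093525.2, and AC073548.1 (3.27) within NAPA, on the same strand. ATP6V0C changed by 0.29 (adjusted p = 0.0313) and NAPA by 0.26 (adjusted p = 0.0966). AC093525.2 was listed at 0, 0.18 and 0 TPM in controls and at 0.83, 1.07 and 1.84 TPM with Acetalax, with a fitted change of 4.29 ± 0.89 (adjusted p = 0.0131) that depends on the prior count. AC129492.1 changed by 2.99 and lost its call without Acetalax 2 (adjusted p = 0.0598), and AC005192.1 changed by 2.80.

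Compared with the other cells of the series, the parental LNCaP response differed in 249 of 19393 genes from that of LNCaP CE (1.28%), by a test of the difference of the 2 log2 fold changes, with 0.701% of genes higher and 0.583% lower in the parental cells. It differed in 1108 of 21955 genes from that of PC3 parental (5.05%), with 3.15% higher and 1.9% lower. MSMO1 rose by 2.79 in LNCaP parental and changed by 0.89 in PC3 parental (difference 1.91, adjusted p = 0.0416). MVD rose by 1.32 in LNCaP parental and changed by 0.35 in LNCaP CE (difference 0.97, adjusted p = 0.015). MYC changed by -2.82, 0.10 and -0.48 in LNCaP parental, LNCaP CE and PC3 parental, with differences of -2.92 (adjusted p = 0.0266) and -2.34 (adjusted p = 0.00079). JUN changed by 2.17 in LNCaP parental and 0.09 in LNCaP CE (difference 2.08, adjusted p = 0.034), and FOXA1 by -0.87 and -0.02 (difference -0.85, adjusted p = 0.0128). DNAJB1 differed in the opposite sense from PC3, at 1.66 against 2.94 (difference -1.27, adjusted p = 0.0283), and so did TRPM4, at 0.08 against 0.58 (difference -0.50, adjusted p = 0.0254). Lines and media differ together, so they cannot be told apart here. These differences were also called without control 2 and Acetalax 3.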

How the data were processed

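RNA was enriched for poly(A) and made into strand-directional paired-end libraries, per the labels' protocols. The submitters' processing notes name STAR 2.7, RSEM, FastQC and GRCh38 (hg38). Which annotation release and strand setting were used for counting is not given in the sources used here. Values of overlapping, antisense and near-identical genes are therefore uncertain. The deposited tables of the authors hold TPM and RSEM expected counts of 60660 features, with 10.2% of the counts not whole. Each deposited table had 1 column of per-sample values that was not used.

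Expected counts were rounded and tested by quasi-likelihood in edgeR 4.0.16 (with limma 3.58.1 and R 4.3.3) after TMM scaling and filterByExpr (minimum count 10), with Benjamini-Hochberg adjustment at 0.05. The fit used the 12 LNCaP libraries with 1 term per group; the difference from PC3 used all 24. SE was the log2 fold change divided by the square root of F. Where no tool is named, an adjusted p is from edgeR. The steps were tested on simulated data. Alternatives were DESeq2 1.42.0, RLE factors, no count filter, limma on log2(TPM + 1) and log2(TPM + 0.1), other sets of libraries, a replicate block, and each library left out in turn.

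Positions and exon numbers come from GENCODE 29, which matched 58429 features. Promoters are from RefSeq (GRCh38.p14). All 695 symbols of the 38 gene lists matched a feature. The members and lists were chosen with earlier results of these data known. Named genes were the 12 largest rises and 12 largest falls called with and without control 2 and Acetalax 3 with the same sign, with no overlap of TPM between groups and a mean of at least 5 TPM in the higher group. TRPM4, up to 8 called members per list, regulators at the head of a list, and VEGFA, NDRG1, CA9 and DDIT3 were added. Some genes that met this rule are not reported here, but they count in the totals of their lists. Other genes named in the text (SQLE, FOS, KLK3, FLCN, TRPM7, TRPM8 and the genes that overlap named ones) were chosen after their values were seen. No 2 libraries of a group agreed within counting noise (chi-square per degree of freedom 11.1 to 225). Intervals of counts hold for counting error alone, since no molecular identifiers are named.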

Additional observations from a re-analysis of the deposited data

Results flagged for a closer look

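Groups of 3 libraries were too small for the test of single stray samples, so only differences between responses are given here. Of 79 genes whose values the text reports, the response to Acetalax differed between LNCaP parental and LNCaP CE in 22 and between LNCaP parental and PC3 parental in 36, by edgeR's test of the difference of the log2 fold changes (adjusted p under 0.05). Most of these genes were named for their change in LNCaP parental, which is a term of both differences, so high counts were favoured. Of all genes tested, 1.28% and 5.05% differed. Without control 2 and Acetalax 3 all 22 and 34 of the 36 were called again, and FANCF and TNFAIP3 (adjusted p of 0.086 and 0.0952) were not. That fit reused libraries of the first and called 3837 genes for the difference from LNCaP CE, against 249. The values below are the LNCaP parental log2 fold change minus that of the other cells.

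Against LNCaP CE, the difference was positive for the chaperone genes HSPA6 (6.36) and HSPA1B (2.7), for the early response genes JUN (2.08), SRF (1.24), CCN1 (1.21), IER2 (0.861) and SERTAD1 (0.858), for the cytokine genes IL11 (1.46) and LIF (0.983), and for the sterol gene MVD (0.971). It was also positive for the clone-named AC073548.1 (3.52) and AC093525.8 (3.09) and for CDK9 (0.501), which fell less in the parental cells, by 0.30 against 0.80. The difference was negative for MYC (-2.92), for the prostate genes C1orf116 (-3.90), FOXA1 (-0.852) and GATA2 (-0.732), for the feedback inhibitors SPRY2 (-1.68) and SPRY4 (-1.19), and for SNAI2 (-2.70), HEXIM1 (-0.577) and NFKBIA (-1.43). C1orf116 changed in opposite directions, by -1.26 in parental and 2.64 in CE cells. NFKBIA rose in both, by 0.57 in parental and 2.00 in CE cells.

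Against PC3 parental, the difference was positive for CREBRF (3.34), CCN1 (3.28), MXD1 (2.47), KLF6 (2.46), JUNB (2.00), ZFP36 (1.57), SRF (1.13), IER2 (1.02) and SERTAD1 (1.34), for MSMO1 (1.91), and for REL (1.72), TNFAIP3 (1.60) and IL11 (1.23). It was positive for BBC3 (1.82), PPM1D (1.46), NFAT5 (1.37), LATS2 (1.35), ATG14 (1.28) and BRD2 (0.771), and for the clone-named AC005192.1 (3.03), AC129492.1 (2.86), AC073548.1 (2.44) and AC093525.8 (2.17). It was negative for SNAI2 (-2.85), MYC (-2.34), RRS1 (-1.3), CDKN2C (-1.39), HEXIM1 (-0.78), SPRY4 (-0.729) and GATA2 (-0.606), for UFSP1 (-2.05), ZNF552 (-1.95), EID2B (-1.50) and FANCF (-0.748), and for DNAJB1 (-1.27) and TRPM4 (-0.498), whose log2 fold changes were larger in PC3.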

How the results depend on the processing

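The count of 1639 called genes moved with the libraries used. It was 154 with only the 6 parental libraries, 5280 without control 2 and Acetalax 3, 4182 with only the other 4 parental libraries, 4427 with a covariate for the 2 libraries, 2780 with DESeq2, and 967 to 2615 with each library left out in turn. It was 1744 with all 24 libraries, 1692 with RLE factors, 1161 with no low-count filter, and 1913, 1593 and 1658 with limma on TPM, where 30.3% to 32.4% of calls were higher against 47.8%. Leaving 1 library of a group of 3 leaves 2, and the spread is then shared with the other groups. The difference from LNCaP CE, 249 genes, was 3837 without the 2 libraries, 1082 with DESeq2, 132 with no low-count filter and 111 to 811 with each library left out. The difference from PC3, 1108 genes, was 1817 with DESeq2, 708 with no low-count filter and 866 to 1436 with each library left out. The cause of these changes was not tested.

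Whether replicate numbers pair the samples could not be decided. Deviations of same-numbered libraries correlated at 0.412, -0.488 and -0.587, and those of control 2 and Acetalax 3 at 0.707. Every pair of 1 of these 2 libraries with another was negative, so the values follow the 2 libraries whatever the numbers. With a replicate block the counts were 438, 3 and 464 for the response and its differences from LNCaP CE and PC3. Of 114 called named genes 0 reversed as a called gene under any alternative run. Called in the same direction were 110 without the 2 libraries, 114 with DESeq2, 109 with RLE factors, 103 with no filter, 78 to 91 with limma on TPM, 90 with 24 libraries, 53 with the replicate block, 87 to 111 with each library left out, and 24 of 113 tested with the 6 libraries alone.

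Values that changed sign were those of genes with no call. TRPM4 was -0.12, -0.121 and -0.12 with limma on log2(TPM + 1), log2(TPM + 0.1) and log2(TPM + 1) with no filter. DDIT3 was 0.185 with the covariate, 0.144, 0.151 and 0.144 with limma and 0.172 with the replicate block, and TFEB was -0.0593, -0.0672 and -0.0593 with limma. With each library left out in turn, DDIT3 ranged from -0.623 to 0.386, CA9 from -0.783 to 0.402, NDRG1 from -0.823 to 0.242, VEGFA from -0.195 to 0.837 and TFEB from -0.0973 to 0.216. With 3 libraries a group, of which 1 stood apart in each, a gene that was not called is not shown to be unchanged.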

Other observations

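A few lists outside the main response gave single calls. Of 22 interferon response genes 0 rose and 1 fell, with a median of -0.05. It was DDX58, a sensor of viral RNA, at -0.72 ± 0.16 (adjusted p = 0.019), which lost its call without Acetalax 1 (adjusted p = 0.0743). In the fit without control 2 and Acetalax 3, which called 14.3% of all genes tested higher and 12.3% lower, 1 rose and 3 fell. Of 11 genes of ID and BMP feedback 1 rose and 1 fell. SKIL, a repressor of SMAD signalling, rose by 0.69 ± 0.17 and lost its call without control 1, control 2, Acetalax 1 or Acetalax 2 (adjusted p of 0.087, 0.0514, 0.116 and 0.0989), and the fall was SNAI2, with 4 and 5 without control 2 and Acetalax 3. Of 17 genes of FOXO and insulin signalling CITED2 was the 1 call, and 5 rose and 5 fell without these 2 libraries.

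Among features that are neither coding, long non-coding nor pseudogenes, 22 of 224 were higher (9.82%) and 2 lower (0.893%), compared with 4.67% and 5.09% of protein-coding genes. Of 9 tested markers of fibroblasts, endothelium and immune cells 1 rose and 2 fell. CD14, a monocyte marker, stood at 0.11, 0.07 and 0.37 TPM in controls and at 0.71, 1.20 and 1.31 TPM with Acetalax, without overlap (2.93 ± 0.40, adjusted p = 0.00133). COL1A2 and COL3A1, collagen genes, were lower at levels near 1 TPM or below, and lost their calls without Acetalax 2 (adjusted p of 0.0547 and 0.0723), COL3A1 also without control 2 or control 3. Of 9 neuroendocrine markers 7 stayed under 1 TPM in every library, with CHGA and CHGB at 0 in all 6. ENO2 read 174, 16.1 and 198 TPM in controls and 218, 165 and 17.5 TPM with Acetalax, lowest in control 2 and Acetalax 3. SYP read 2.16, 1.85 and 1.97 TPM in controls and 1.46, 1.44 and 1.24 TPM with the drug (-0.53 ± 0.12, adjusted p = 0.0221). Its call was lost without control 1, Acetalax 1 or Acetalax 2. Of the 8 PC3 markers 3 stayed under 1 TPM, and VIM ranged from 1.96 to 9 TPM.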
